A study of Mus musculus with 4 samples.

Results

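Amacrine and horizontal cell fate genes of the embryonic mouse retina were followed across genotype: 10 genes, chosen by symbol, of 18471 in the deposited table. They fall into 5 genes of the amacrine group, the AP-2 factors Tfap2a, Tfap2b and Tfap2c and the enzymes Gad1 and Gad2, and 5 genes of the horizontal group, Onecut1, Onecut2, Onecut3, Lhx1 and Prox1. RNA was sequenced from retinas of single genotyped embryos at embryonic day 19, with 2 libraries labelled wild-type and 2 labelled Foxn3KO. The Foxn3KO embryos are Foxn3-/- and are of the strain C57BL/6NJ-Foxn3em1(IMPC)Bay/Mmnc, with a deletion of exon 3 of Foxn3, the gene of a forkhead transcription factor; the wild-type embryos lack that deletion. The deletion is in the germline, so each cell of the embryo carries it. The series title places Foxn3 in a network of genes that controls primary cilia, and the comparison here asks how the interneuron fate genes differ between the genotypes.

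Amacrine and horizontal cells are the inhibitory interneurons of the retina. Both arise from progenitors that express Foxn4 and then Ptf1a. Tfap2a and Tfap2b act in the young cells of both types, while Tfap2c is best known from amacrine cells. Onecut1, Onecut2 and Onecut3, which pair a cut domain with a homeodomain, together with Prox1 and Lhx1 set and maintain horizontal cell identity. Onecut genes are also expressed in retinal ganglion cells, and Prox1 in a class of amacrine cells and in the lens, so no member marks a single cell type without exception. Gad1 and Gad2 encode the enzymes that make the transmitter GABA, chiefly in amacrine cells and also in young horizontal cells.

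Of the 10 genes, 5 were lower in the Foxn3KO-labelled libraries and 0 were higher (edgeR quasi-likelihood test with Benjamini-Hochberg adjustment over all genes, adjusted p under 0.05). The 5 were Gad1 and Tfap2c in the amacrine group and Onecut1, Onecut2 and Prox1 in the horizontal group. Their falls ran from 10.2% for Prox1 to 29.8% for Onecut1. Of 17300 tested genes, 21.9% were called in either direction, 9.66% were called lower and 12.3% were called higher. At an unadjusted p under 0.05, 6 of the 10 were lower and 0 higher, and DESeq2 and limma-voom also called 0 of them higher. All 10 genes passed the filter on low counts. The median log2 fold change was -0.03 over the amacrine group and -0.18 over the horizontal group, against -0.00470 over all tested genes. In bulk retina, fewer cells of a type and less RNA per cell cannot be told apart.

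Facts of the libraries bear on each of these values. Total counts ran from 22543531 to 29360129, so 3 counts corresponded to 0.103 to 0.134 CPM (counts scaled by library totals and TMM factors). The 10 genes together took 0.0686% to 0.0747% of the counts. Foxn3 itself had 97.6 and 99.8 CPM in the wild-type-labelled libraries, against 143.6 and 143.7 CPM in the Foxn3KO-labelled ones. Counts per gene do not resolve exon 3, so they check neither the deletion nor the labels, and each direction rests on the labels. Wild-type replicate 1 carried 83073 Xist counts, where the others carried 9 to 19. The Y-linked Ddx3y was at 0 there and at 1780 to 2317 elsewhere. By these genes wild-type replicate 1 stands apart from the rest in sex, so sex and genotype are partly mixed. With 2 embryos a group an exact permutation test of a single value cannot go below p = 0.333, so the tests come from a model that shares the spread over genes.

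Levels of the 10 genes were first ordered per gene length, by the deposited FPKM. Tfap2b was the most abundant, at 45.6 to 49.8 FPKM over the 4 libraries. Tfap2a came next at 17.0 to 19.2 FPKM and Gad2 after it at 12.5 to 13.8 FPKM. Each of these ranges was clear of its neighbours. Prox1, at 10.2 to 11.6 FPKM, had the highest level per length in the horizontal group. Tfap2c (5.27 to 6.77 FPKM) and Gad1 (4.43 to 5.47 FPKM) overlapped each other. Onecut2 followed at 3.37 to 3.91 FPKM. Onecut1 (1.66 to 2.90 FPKM) and Lhx1 (1.83 to 2.04 FPKM) overlapped, and Onecut3 was lowest at 1.30 to 1.74 FPKM. The amacrine group therefore held the top 3 places and the horizontal group the bottom 4.

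**Figure D1:**
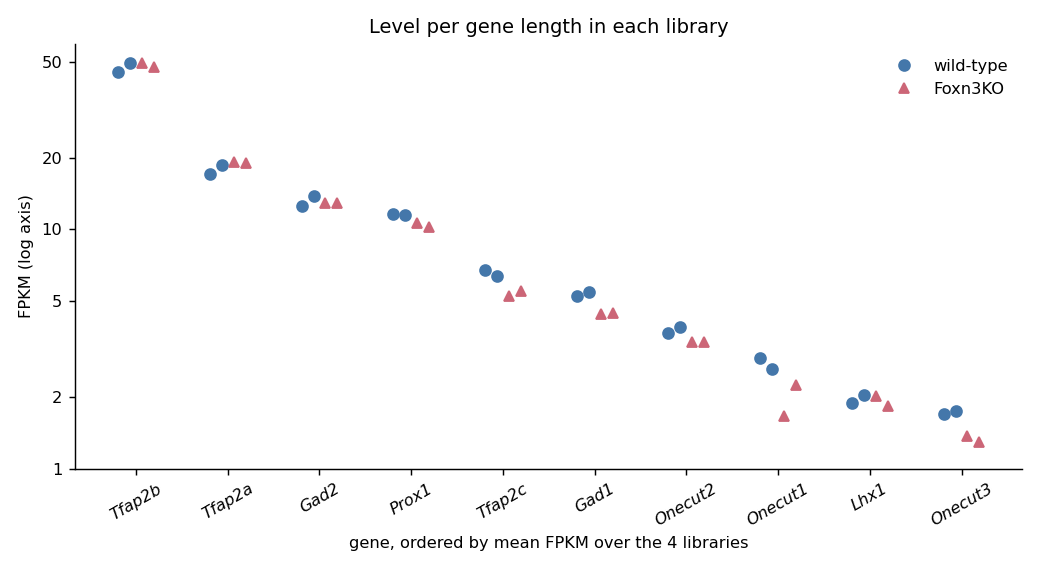
Deposited FPKM (log axis) of each gene in the 2 wild-type (circles) and 2 Foxn3KO libraries (triangles), ordered by the mean over the 4 libraries. Tfap2b lies at 45.6 to 49.8 and Onecut3 at 1.30 to 1.74.

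Start-site windows are printed for 2 genes that were lower, Gad1 and Onecut1, each with a partner of the same group that was not called, Gad2 and Lhx1, so that the regulatory sequence can be read beside the values. The windows are from RefSeq (GRCm38.p6) and run from 250 bases before to 50 bases after the start site, on the gene's strand. They were matched by symbol for 7 of the 10 genes; Tfap2c, Onecut2 and Onecut3 were not matched. Capitals mark matches on either strand to the short forkhead motif GACGC or to the AP-2 motif GCCNNNGGC. The forkhead motif GTAAACA was searched too. The windows lie at chr2:70561879-70562178, plus strand (Gad1), chr2:22622077-22622376, plus strand (Gad2), chr9:74861671-74861970, plus strand (Onecut1) and chr11:84525485-84525784, minus strand (Lhx1).
Gad1: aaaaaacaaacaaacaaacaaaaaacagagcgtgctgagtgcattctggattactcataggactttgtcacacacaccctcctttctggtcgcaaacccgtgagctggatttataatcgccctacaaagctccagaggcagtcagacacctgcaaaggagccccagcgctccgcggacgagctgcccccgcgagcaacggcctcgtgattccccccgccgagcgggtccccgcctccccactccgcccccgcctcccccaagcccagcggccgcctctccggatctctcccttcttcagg
Gad2: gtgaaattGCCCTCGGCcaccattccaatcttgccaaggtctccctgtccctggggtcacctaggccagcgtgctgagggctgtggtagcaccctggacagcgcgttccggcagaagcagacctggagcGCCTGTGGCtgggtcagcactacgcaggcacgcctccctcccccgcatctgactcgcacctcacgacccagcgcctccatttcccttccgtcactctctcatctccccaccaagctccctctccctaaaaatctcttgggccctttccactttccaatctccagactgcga
Onecut1: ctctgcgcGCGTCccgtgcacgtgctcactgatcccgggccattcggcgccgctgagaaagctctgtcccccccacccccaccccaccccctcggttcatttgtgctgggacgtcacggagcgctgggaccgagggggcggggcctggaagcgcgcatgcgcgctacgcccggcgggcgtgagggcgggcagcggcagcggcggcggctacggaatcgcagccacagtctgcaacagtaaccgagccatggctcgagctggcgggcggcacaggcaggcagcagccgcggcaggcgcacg
Lhx1: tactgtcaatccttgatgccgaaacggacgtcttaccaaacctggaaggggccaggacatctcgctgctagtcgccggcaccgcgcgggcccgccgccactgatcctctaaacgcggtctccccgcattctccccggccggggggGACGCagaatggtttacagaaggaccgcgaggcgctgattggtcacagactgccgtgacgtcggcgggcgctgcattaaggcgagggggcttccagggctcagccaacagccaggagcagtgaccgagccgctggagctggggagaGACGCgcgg

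The Gad1 window held none of the 3 motifs. The Gad2 window held 2 AP-2 matches, first bases at -242 and -121 from the start site. The Onecut1 window held 1 GACGC match at -242, and the Lhx1 window held 2, at -105 and 42. GTAAACA was in none of the windows of the 7 matched genes. Among 32851 windows of the same length, 27.2% held GACGC, 16.6% held GCCNNNGGC and 3.65% held GTAAACA. A match is a run of letters and no measurement of binding.

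Among the AP-2 factors of the amacrine group, Tfap2c was lower while Tfap2a and Tfap2b did not pass the test. Tfap2c (ENSMUSG00000028640) had 621 and 638 counts in the wild-type-labelled libraries, against 566 and 457 in the Foxn3KO-labelled ones. Scaled to depth, these were 25.0 and 23.5 CPM against 19.4 and 20.4 CPM. The groups did not overlap, and both Foxn3KO libraries lay below the lower wild-type one. Group means were 24.3 ± 1.10 and 19.9 ± 0.685 CPM (SD, n = 2 each). The change was -0.28 on the log2 scale, with SE 0.080 and an adjusted p of 0.0164 by the quasi-likelihood test of edgeR. The fall by 17.9% had a 95% interval from -27.0% to -7.68%.

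Tfap2a (ENSMUSG00000021359), an AP-2 factor of young amacrine and horizontal cells, had 83.8 and 91.7 CPM in the wild-type-labelled libraries, against 94.4 and 93.4 CPM in the Foxn3KO-labelled ones. The Foxn3KO libraries were the higher ones without overlap, but the gap to wild-type replicate 2 was small. The log2 fold change was 0.10 with a 95% interval of -0.02 to 0.21 (edgeR adjusted p = 0.216). Tfap2b (ENSMUSG00000025927), which acts in the same cells, had 290.5 and 315.4 CPM against 316.2 and 302.6 CPM. Its groups overlapped. The log2 fold change was 0.03 with an interval of -0.07 to 0.13 (edgeR adjusted p = 0.697), that is -4.57% to 9.33%.

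Because the AP-2 members differ in length, their mix was compared as shares of their summed FPKM within a library. Tfap2c made up 9.76% and 8.53% in the wild-type-labelled libraries, against 7.10% and 7.67% in the Foxn3KO-labelled ones. Tfap2a made up 24.5% and 24.99% against 25.9% and 26.3%. Tfap2b held 65.7% to 67.0% in all 4 libraries, with overlap between the groups. These shares and the ratios below were picked after the values of the genes were seen and are given without a test.

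Of the GABA-synthesising enzymes, Gad1 was lower and Gad2 did not pass; the difference between them was not tested. Gad1 (ENSMUSG00000070880) had 1005 and 1138 counts in the wild-type-labelled libraries, against 988 and 769 in the Foxn3KO-labelled ones. Scaled to depth, these were 40.5 and 41.9 CPM against 33.9 and 34.3 CPM. Both pairs were tight and the groups were well apart. Means were 41.2 ± 0.960 and 34.1 ± 0.289 CPM (SD, n = 2 each). The change was -0.27 on the log2 scale, with SE 0.063 and an adjusted p of 0.00465 by the quasi-likelihood test of edgeR. Gad1 thus fell by 17.2%, with a 95% interval from -24.5% to -9.14%.

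Gad2 (ENSMUSG00000026787), whose enzyme makes the same transmitter, had 73.9 and 81.3 CPM in the wild-type-labelled libraries, against 75.96 and 75.7 CPM in the Foxn3KO-labelled ones. The Foxn3KO libraries lay between the wild-type ones. The log2 fold change was -0.03 with an interval of -0.15 to 0.08 (edgeR adjusted p = 0.724). The ratio of Gad1 to Gad2 FPKM was 0.422 and 0.396 in the wild-type-labelled libraries, against 0.344 and 0.349 in the Foxn3KO-labelled ones, without overlap.

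In the horizontal group, 3 of 5 genes were lower, Onecut3 missed the threshold and Lhx1 did not differ beyond its spread. Onecut1 (ENSMUSG00000043013), which is needed to form and keep horizontal cells, had 297 and 292 counts in the wild-type-labelled libraries, against 199 and 207 in the Foxn3KO-labelled ones. Scaled to depth, these were 11.98 and 10.7 CPM against 6.83 and 9.24 CPM. The groups did not overlap, but the Foxn3KO libraries stood further apart than the wild-type ones. Means were 11.4 ± 0.869 and 8.04 ± 1.70 CPM (SD, n = 2 each). The change was -0.51 on the log2 scale, with SE 0.138 and an adjusted p of 0.0131 by the quasi-likelihood test of edgeR. The size of this fall depended on Foxn3KO replicate 1: without it the log2 fold change was -0.30 (edgeR adjusted p = 0.248), and without Foxn3KO replicate 2 it was -0.73 (adjusted p = 0.000272).

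Onecut2 (ENSMUSG00000045991), a related cut-homeodomain factor, had 60.4 and 63.7 CPM in the wild-type-labelled libraries, against 54.9 and 55.0 CPM in the Foxn3KO-labelled ones. The groups did not overlap. The change was -0.18 on the log2 scale, with SE 0.056 and an adjusted p of 0.0311 by the quasi-likelihood test of edgeR, a fall by 11.5%. Onecut3 (ENSMUSG00000045518), another member of the family, had 8.11 and 8.32 CPM against 6.52 and 6.21 CPM, again without overlap. Its log2 fold change of -0.37 (SE 0.132) had an edgeR adjusted p of 0.0570 and did not pass. Its counts were low, 139 to 226 per library, so counting error alone is 6.65% to 8.48% of a value.

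The 3 Onecut genes summed to 80.5 and 82.8 CPM in the wild-type-labelled libraries, against 68.2 and 70.5 CPM in the Foxn3KO-labelled ones. As shares of their FPKM, Onecut2 held 44.7% and 47.4% against 52.8% and 48.9%, without overlap. Onecut1 held 34.96% and 31.6% against 25.9% and 32.4%, and Onecut3 held 18.7% to 21.3%. The shares of Onecut1 and of Onecut3 overlapped between the groups.

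Lhx1 (ENSMUSG00000018698), a LIM-homeodomain factor that places horizontal cells in their layer, had 7.70 and 8.32 CPM in the wild-type-labelled libraries, against 8.17 and 7.46 CPM in the Foxn3KO-labelled ones. Each group held 1 higher and 1 lower library, and the groups overlapped. The log2 fold change was -0.03 with a 95% interval of -0.31 to 0.24 (edgeR adjusted p = 0.893), so at 167 to 238 counts per library a fall as large as that of Onecut2 was not detectable. The ratio of Onecut1 to Lhx1 FPKM was 1.54 and 1.28 against 0.828 and 1.23, without overlap but with Foxn3KO replicate 2 close to wild-type replicate 2.

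Prox1 (ENSMUSG00000010175), a homeodomain factor that drives progenitors out of the cell cycle towards horizontal cells, had 98.2 and 97.1 CPM in the wild-type-labelled libraries, against 89.4 and 85.9 CPM in the Foxn3KO-labelled ones. The groups did not overlap. The change was -0.16 on the log2 scale, with SE 0.049 and an adjusted p of 0.0311 by the quasi-likelihood test of edgeR, a fall by 10.2%. Prox1 is also a lens gene, and lens RNA differed between the libraries: 10 lens markers summed to 5.85 and 76.7 CPM in the wild-type-labelled libraries, against 297.4 and 298.6 CPM in the Foxn3KO-labelled ones. Prox1 was thus lower in the libraries with more lens RNA, and the part of lens RNA in its level was not tested.

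**Figure D2:**
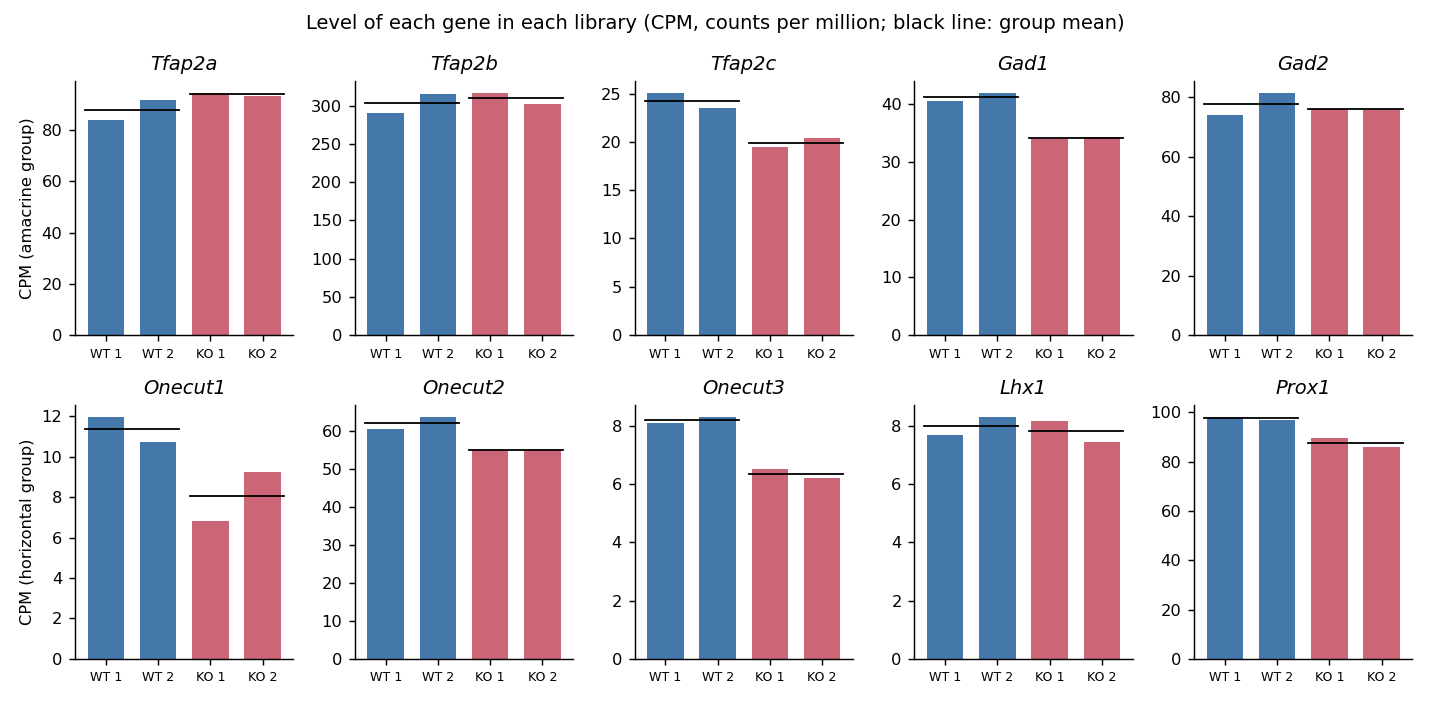
CPM of each gene in the wild-type (WT, blue) and Foxn3KO (KO, red) libraries, 1 bar per library, with the group mean as a line. Both Foxn3KO bars lie below both wild-type bars for Tfap2c, Gad1, Onecut1, Onecut2, Onecut3 and Prox1.

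In CPM, 6 of the 10 genes had both Foxn3KO libraries below both wild-type libraries, a pattern shown by 30.5% of all tested genes. The 5 amacrine genes summed to 513.7 and 553.8 CPM in the wild-type-labelled libraries, against 539.9 and 526.5 CPM in the Foxn3KO-labelled ones, with overlap. The 5 horizontal genes summed to 186.4 and 188.2 CPM against 165.8 and 163.8 CPM, without overlap. Prox1 and Onecut2, both called lower, held most of the horizontal sum in CPM, and Tfap2b most of the amacrine sum. Per gene length, the horizontal sum was 0.2503 and 0.232 of the amacrine sum in the wild-type-labelled libraries, against 0.208 and 0.212 in the Foxn3KO-labelled ones.

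**Figure D3:**
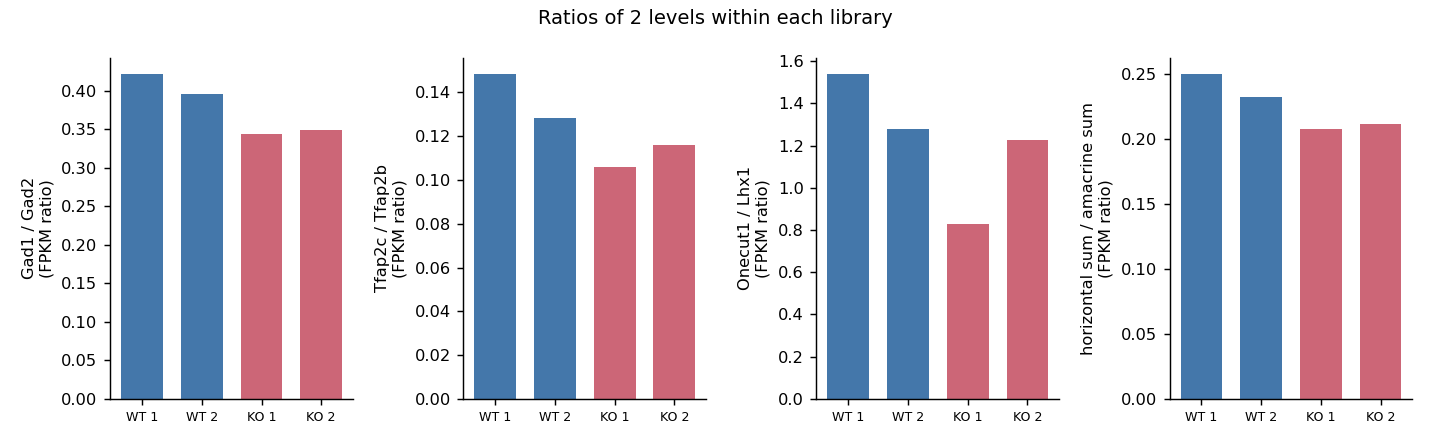
Ratios of FPKM within each library for Gad1 to Gad2, Tfap2c to Tfap2b, Onecut1 to Lhx1 and the summed horizontal to the summed amacrine genes, 1 bar per library. Each ratio was lower in both Foxn3KO libraries. For Onecut1 to Lhx1 the nearest values were 1.28 and 1.23. The pairs were picked after the values were seen: Gad1, Tfap2c and Onecut1 were called lower and their partners were not called.

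The calls depended on the test and on single libraries. DESeq2, which calls 16.0% of the genes to which it gives an adjusted p, called only Gad1 (adjusted p = 0.0299). It gave Onecut1 0.0529, Tfap2c 0.0966, Prox1 0.111 and Onecut2 0.133. When a library was left out, the remaining single library of its group was assumed to vary like the other group. Without wild-type replicate 1, the library that stands apart by sex, the same 5 genes were called, all lower (24.3% of all tested genes called). Without wild-type replicate 2, 4 of them were called lower, Onecut2 was lost (adjusted p = 0.0781), and Tfap2a (log2 fold change 0.17) and Tfap2b (0.09) were called higher (28.6% of all genes). Without Foxn3KO replicate 1 none of the 10 was called (13.1% of all genes), although 5 were lower at an unadjusted p under 0.05 and Gad1 had an adjusted p of 0.0533. Without Foxn3KO replicate 2 Gad1 and Onecut1 were called (13.0% of all genes). The log2 fold changes of the 5 called genes, and of Onecut3, were below 0 in each of these 4 fits. In CPM these genes did not overlap between the groups, so leaving out a single library could hardly change that sign.

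**Figure D4:**
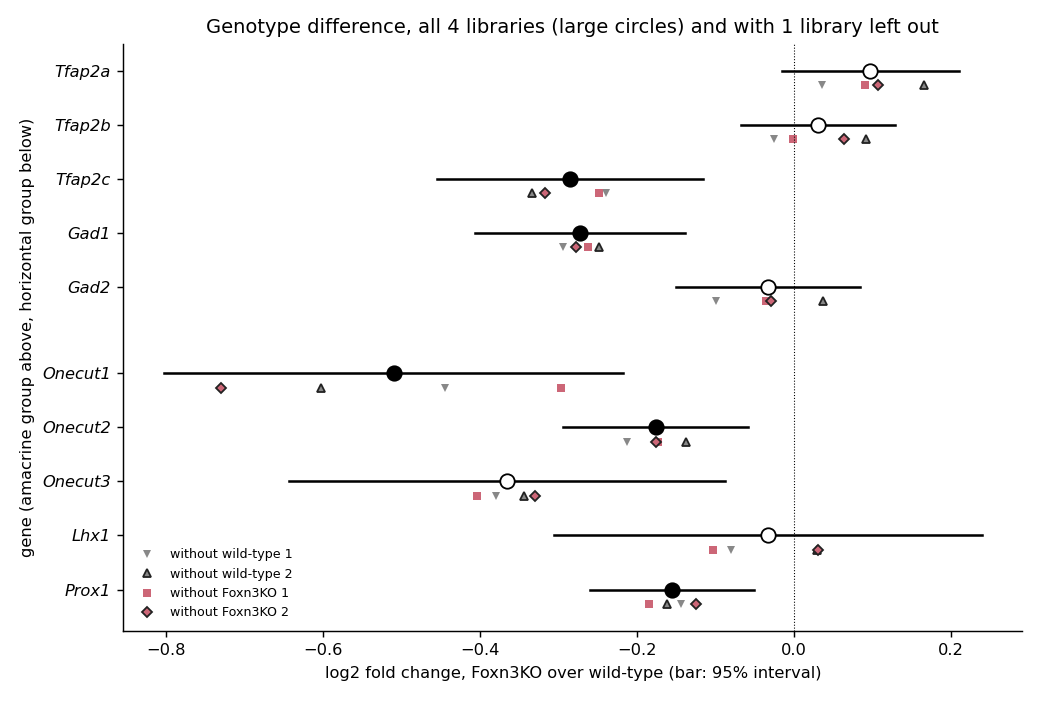
Log2 fold change, Foxn3KO over wild-type, with its 95% interval (large circles, filled where the edgeR adjusted p was under 0.05) and, as small symbols, the value with each library left out. Onecut1 moved most, from -0.73 to -0.30; Gad1 stayed between -0.29 and -0.25.

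In the authors' deposited table, whose log2 fold changes for the 10 genes lie closer to 0 than those of the unshrunken DESeq2 fit, Gad1 stands at -0.25 (log2) and its adjusted p is 0.0299. The authors' deposited table gives -0.40 for Onecut1, adjusted p 0.0529, and no other member under 0.05. For the 5 genes called here, its adjusted p values are those of the DESeq2 fit above, so it is no separate test.

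Genes upstream of both cell types were compared next. Of 12 listed, 1 was lower and 1 higher, so 16.7% were called, against 21.9% of all tested genes. Neurod4, a basic helix-loop-helix factor of amacrine genesis, was lower, with a log2 fold change of -0.16 (adjusted p = 0.0200 in edgeR). Six3, an eye-field factor, rose by 0.18 (adjusted p = 0.0223) and did not pass in DESeq2 (adjusted p = 0.272). Leaving out wild-type replicate 1 gave 0.08 for Six3, and leaving out the other wild-type library gave 0.28. Neither call held without Foxn3KO replicate 1 (adjusted p = 0.329 for Neurod4 and 0.0672 for Six3) or without Foxn3KO replicate 2 (0.0916 and 0.183). The progenitor factors that open the interneuron path did not pass: Foxn4 had a log2 fold change of -0.02 (SE 0.044, edgeR adjusted p = 0.776) and Ptf1a 0.03 (SE 0.074, adjusted p = 0.842). The list had a median of 0.04.

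Of 26 other amacrine genes, 3 were lower and 3 higher, with a median of -0.02; 23.1% were called, near the 21.9% of all genes. Among the lower ones were Chat, the acetylcholine-making enzyme of starburst amacrine cells (log2 fold change -1.27, edgeR adjusted p = 0.000479), and Isl1, a factor of starburst, ganglion and bipolar cells (-0.23, adjusted p = 0.00245). Chat rests on 86 and 104 counts against 43 and 35. Slc18a3, the acetylcholine vesicle transporter, whose gene lies within Chat so that shared reads are possible, had -0.36 (edgeR adjusted p = 0.138), and Slc5a7, the choline transporter, had 0.31 (adjusted p = 0.346). Of these 3 acetylcholine genes, 1 passed the test, and Slc18a3 and Slc5a7 were picked after their values were seen. Higher were Calb2, a calcium-binding protein of amacrine and ganglion cells (0.29, edgeR adjusted p = 0.000303), Bhlhe22, a factor of amacrine and bipolar subtypes (0.21, adjusted p = 0.00903), and Ebf3 (0.19, adjusted p = 0.0245). Single libraries decided some of these calls. Ebf3 had 0.11 without wild-type replicate 1 (edgeR adjusted p = 0.0755), 0.14 without Foxn3KO replicate 2 (0.262) and an adjusted p of 0.0610 in DESeq2. Bhlhe22 had 0.18 without Foxn3KO replicate 2 (adjusted p = 0.167), and Isl1 had -0.21 without Foxn3KO replicate 1 (0.0592). Prdm13 and Barhl2, amacrine subtype factors, had -0.04 and 0.04 and did not pass.

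Of 10 other horizontal genes, 9 were in the table; Gja10 was not analysed here. Of these, 2 were lower and 2 higher, so 44.4% were called, against 21.9% of all tested genes. Septin4 was among the lower ones (log2 fold change -0.41, edgeR adjusted p = 0.000152). Tpm3, a tropomyosin with wide expression (0.32, edgeR adjusted p = 2.72e-05), and Calb1, the calcium-binding protein calbindin (0.49, adjusted p = 0.0263), were higher. Calb1 had 157 and 141 counts against 216 and 196, and lost its call in DESeq2 (adjusted p = 0.112), without wild-type replicate 2 (0.134) and without Foxn3KO replicate 2 (0.220). Sall3, a zinc-finger factor of horizontal cells, had -0.05 and Megf11, which spaces horizontal cells, -0.06, and neither passed. The list had a median of -0.05 and went in both directions.

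Among 8 measured family relatives, Tfap2d, an AP-2 factor of ganglion cells, was lower (17.8 ± 0.0191 against 13.5 ± 1.38 CPM, SD, n = 2 each; log2 fold change -0.40, edgeR adjusted p = 0.00641). The list had a median of -0.16, and 12.5% of it was called, against 21.9% of all tested genes. Tfap2d was the only relative called, and without Foxn3KO replicate 2 it had -0.30 (adjusted p = 0.121). Without wild-type replicate 1, 3 relatives were called. Gadl1 was not analysed here.

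Of 22 genes that transport, break down or sense GABA, 3 were lower and 4 higher, with a median of 0.04. The share called was 31.8%, against 21.9% of all tested genes. The receptor subunit Gabrb2 was among the lower ones (log2 fold change -0.51, edgeR adjusted p = 0.00515). Higher were Abat, which breaks GABA down (0.33, edgeR adjusted p = 0.000111), and the subunits Gabrg3 (0.65, adjusted p = 0.000185), Gabra2 (0.38, adjusted p = 0.000225) and Gabrg1 (1.19, adjusted p = 0.000977). Gabrg1 was a low gene, at 39 to 120 counts per library. Slc32a1, which loads GABA into vesicles, had 0.16 (edgeR adjusted p = 0.132) and did not pass.

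**Figure D5:**
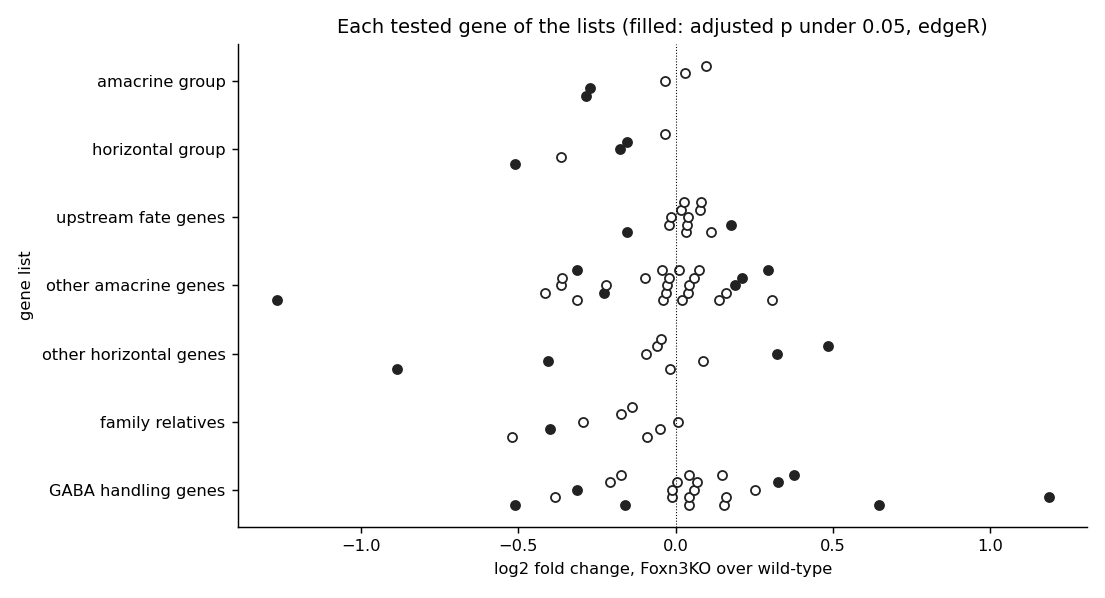
Log2 fold change, Foxn3KO over wild-type, of each tested gene in the amacrine and horizontal groups and in the related lists, filled where the edgeR adjusted p was under 0.05. The horizontal group lies wholly at or below -0.03, and the family relatives lie from -0.52 to 0.00713. The other related lists spread to both sides of 0, from -1.27 (Chat) to 1.19 (Gabrg1).

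Markers of the other cell types that the samples could hold were read beside these values, and their part in the results was not tested. Ganglion cell markers, which share Onecut expression, had 4 of 11 higher and 1 lower, with summed levels of 1923 and 2040 CPM against 2086 and 2080 CPM. The lower marker, Isl1, and the higher Ebf3 are also counted among the other amacrine genes above. The 5 calls became 1 without Foxn3KO replicate 1 and 2 without Foxn3KO replicate 2. Per length, by FPKM, Sncg had the highest level, and the leading marker of each list below is chosen on the same scale. Progenitor markers summed to 5759 and 5939 CPM against 5324 and 5305 CPM, with 3 of 8 lower, 1 higher and Ccnd1 leading. Of these markers 1 was called without Foxn3KO replicate 1, and 2 were called without Foxn3KO replicate 2. Photoreceptor precursor markers had 3 of 7 higher, and Otx2, the leading marker, had a log2 fold change of -0.02. Bipolar markers summed to 78.0 to 86.7 CPM, with 1 of 5 higher and Irx5 leading. Shares called were 45.5% of ganglion, 50% of progenitor, 42.9% of photoreceptor and 20% of bipolar markers, against 21.9% of all tested genes. The bipolar count was 2 without wild-type replicate 2 or without Foxn3KO replicate 1, and 0 without Foxn3KO replicate 2 and in DESeq2.

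Markers listed for tissue outside the neural retina were read too. The lens sum given beside Prox1 was above the sum of the 5 horizontal genes in both Foxn3KO libraries and below it in both wild-type libraries. Lens markers were higher in 9 of 10 (3 by DESeq2). Cryaa led them per length, at 0.323 and 28.6 CPM against 139.3 and 136.3 CPM, and Crybb2, Lim2 and Foxe3 were not analysed here. Pigment epithelium markers were lower in 4 of 8 (2 called without wild-type replicate 2) and summed to 90.8 and 119.5 CPM against 75.0 and 75.7 CPM, with Rlbp1 leading. Surface epithelium markers, of note because Tfap2a is expressed there, summed to 26.4 to 32.8 CPM over 6 genes led by Krt15. Of 5 tested, Cdh1 was higher (log2 fold change 2.23, edgeR adjusted p = 1.40e-07). Mesenchyme markers summed to 8.55 to 12.5 CPM, led per length by Col1a1, and microglia markers to 16.9 to 21.7 CPM, led per length by C1qa. None of their members passed in edgeR, DESeq2 or limma-voom; at an unadjusted p under 0.05, 1 of 5 and 1 of 7 were higher. Of 7 tested vessel and lymphatic markers, of note because Prox1 marks lymphatic cells, Pecam1 was higher and Kdr led; 2 were called without wild-type replicate 1, and 0 without Foxn3KO replicate 2 and in DESeq2. Of 8 markers of forebrain GABA neurons, 2 were in the table, led by Npy, and 6 of 8 of other forebrain neurons, led by Lhx2. None of those passed in any of the 3 tools. At an unadjusted edgeR p under 0.05, 0 of 2 and 1 of 6 differed. Kdr and Pdpn had 38.4 to 41.2 and 35.5 to 37.8 FPKM, against 0.142 to 0.358 FPKM for Pecam1. Lhx2 had 47.9 to 53.2 FPKM, against 8.74 to 9.82 FPKM for Eomes, the next in its list. Which cells these levels come from was not tested.

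Overlapping transcripts were checked in the GENCODE annotation of mouse, since the library kit keeps strand but its use in the counting was not given in the sources used here. Genes on the opposite strand overlap Tfap2a (Gm26688, 75 to 119 counts), Gad1 (Gad1os, 3 to 15 counts) and Prox1 (Prox1os, 82 to 115 counts). On the same strand, 2610034O05Rik overlaps Onecut3 (1 to 8 counts), Gm20649 overlaps Onecut1, and the microRNA genes Mir3967 and Gm23636 overlap Gad2. The counts given were small beside those of the members. No counts were at hand for Gm20649, Mir3967 and Gm23636. The same holds for Gm47061 and Gm47067 opposite Tfap2a and Gm28172 opposite Prox1, so their part was not tested. None of the 10 genes lies on chromosome 12, which holds Foxn3.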

How the data were processed

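Whole-number read counts per gene were deposited by the authors without normalization, with 1 column per library, matched to samples by the labels. The FPKM values, the mean signal per gene (counts over size factors), the log2 fold changes with their errors and the p-values were deposited by the authors too. Per the submitters' processing notes, DESeq2 and the build mm39 were used; the aligner, counter, annotation, strand setting and use of the molecular identifiers are not given in the sources used here. Total counts were 22543531 to 29360129 per library; counting limits cover counting error only.

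Of 18472 entries, 1 repeated identifier was removed. Genes passing filterByExpr (17300) were scaled with TMM factors and tested across all genes using R 4.3.3 and the two-sided quasi-likelihood F test of edgeR 4.0.16, its newer form, on genotype alone. Benjamini-Hochberg adjusted values under 0.05 were called. Each standard error was derived by dividing the log fold change by the root of F, and 95% intervals are unadjusted. The procedure was tested on simulated data. The labels name individual embryos as the source of each library. Replicates differed by more than sampling noise: mean chi-square per gene 10.06 (wild-type) and 1.89 (Foxn3KO), where noise gives 1. The wild-type mean takes in sex-linked genes such as Xist, with 83073 and 17 counts, so it does not describe a typical gene.

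Named genes were the members, the called genes of 5 related lists (the 3 with the smallest p, and all where a count was 5 or fewer) and the most abundant marker of each other cell type; others named without passing (among them Foxn4, Ptf1a, Slc18a3 and Sall3) were chosen after their values were seen. Some called genes of these lists are not reported here by name. Members and lists were chosen with earlier results of these data known. The alternatives tried were scaling by RLE factors or by total counts, testing with no filter or with a minimum of 10 counts per library, DESeq2 1.42.0, voom from limma 3.58.1, the earlier edgeR fit, a threshold of 0.1, a replicate block and leaving out each library. Figures were drawn with matplotlib 3.10.9.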

Additional observations from a re-analysis of the deposited data

How the results depend on the processing

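Of all tested genes 3795 were called, and 2437 by DESeq2; leaving out each library gave 2323 to 5067. The 2 amacrine members called became 1 in DESeq2 and 0 to 4 with a library left out; the 3 horizontal members became 0 in DESeq2 and 0 to 3. The log2 fold changes themselves moved little in DESeq2, where Tfap2c (-0.283), Onecut1 (-0.504), Onecut2 (-0.174) and Prox1 (-0.153) no longer passed; the cause was not tested. Onecut2 also missed the threshold in the earlier edgeR fit (-0.176). Onecut3 passed under total count scaling (-0.386, adjusted p = 0.0434), which shifts the median of all genes to -0.0251, and at an adjusted p under 0.1 (-0.365). With a library left out, log2 fold changes ranged from 0.0358 to 0.166 for Tfap2a, -0.0247 to 0.0926 for Tfap2b, -0.334 to -0.240 for Tfap2c, -0.295 to -0.248 for Gad1 and -0.0986 to 0.0376 for Gad2. They ranged from -0.730 to -0.296 for Onecut1, -0.212 to -0.137 for Onecut2, -0.103 to 0.0309 for Lhx1 and -0.184 to -0.124 for Prox1. Tfap2b was below 0 without wild-type replicate 1 (-0.0247) and without Foxn3KO replicate 1 (-0.000957); Gad2 was above 0 without wild-type replicate 2 (0.0376), and Lhx1 without wild-type replicate 2 (0.0293) and without Foxn3KO replicate 2 (0.0309). The labels do not say that the replicate numbers pair the samples. The differences between replicates correlated at 0.0153 across 17300 genes. That value does not settle pairing, since the wild-type libraries also differ in sex. The replicate block called 4222 genes and the same 5 members. A tally was kept over the related lists, the marker lists of other cell types and the called genes of the related lists. In it 419 values under an alternative were the same and 19 lost the threshold. Another 30 counts moved by more than 1.5 times, or to or from 0, and 0 values changed sign. Only genes already called could change sign in this tally. Depth limits Onecut1, Onecut3 and Lhx1 most, at 139 to 297 counts per library.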

Other observations

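The spread within a genotype differed between members. A chi-square of the counts of 2 libraries against their totals, which sampling noise alone holds near 1, was 26.4 for Tfap2b, 9.33 for Tfap2a and 9.08 for Gad2 between the wild-type libraries. The same genes gave 7.04, 0.0871 and 0.00198 between the Foxn3KO libraries. In each of the 3, wild-type replicate 2 was the higher wild-type library. The order was the other way for Onecut1, with 1.73 between the wild-type and 9.42 between the Foxn3KO libraries. Gad1, Onecut3 and Lhx1 stayed under 1 in both groups. The wild-type libraries also differ in sex, and the part of sex in these spreads was not tested.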
